A study of Rattus norvegicus with 6 samples.

Results

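Fatty acid desaturases and elongases are the enzymes that put double bonds into fatty acids and lengthen their chains, and 10 of their genes were followed in the liver of rats whose fathers had been made hyperglycaemic. The genes were a named list (Scd, Scd2, Fads1, Fads2, Fads3, Elovl1, Elovl2, Elovl3, Elovl5 and Elovl6), 10 of 22093 genes that the platform annotation tied to 1 symbol. Each was represented by its probe set, the group of array probes read as 1 value, with the highest mean over all 6 arrays; 9 of the genes had 1 probe set and Elovl6 had 3, so 12 probe sets were read in all. Scd and Scd2 are close relatives and their probe sets may share hybridisation, so it is uncertain how far each value is its own.

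All 6 livers came from adult Sprague Dawley rats that ate regular chow and were killed in the fed state, 1 rat per litter, without regard to sex. In the STZ-O group (3 arrays) the father was hyperglycaemic after an intraperitoneal injection of streptozotocin, which destroys insulin-producing beta cells. In the CB-O group (3 arrays) the father received citrate buffer and had normal blood sugar. The mothers of both groups were healthy. The labels give neither the age of the offspring nor how many fathers were used, so arrays of a group may share a father; the stated interest of the series was how paternal hyperglycaemia affects metabolism of the progeny, lipid metabolism included.

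The liver makes monounsaturated and polyunsaturated fatty acids by separate routes. In the monounsaturated route, Elovl6 lengthens palmitate made by fatty acid synthase to stearate, and stearoyl-CoA desaturases, encoded by Scd and Scd2, place a first double bond to give palmitoleate and oleate, which go into triglyceride and cholesterol ester. In the polyunsaturated route, dietary linoleate and alpha-linolenate are desaturated by Fads2, lengthened by Elovl5, desaturated again by Fads1 and lengthened further by Elovl2, towards arachidonate and docosahexaenoate. Insulin and the transcription factor SREBP-1c raise many of these genes in rodent liver and dietary polyunsaturated fat lowers them.

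The values are log2 expression, so a step of 1 is a doubling in signal. Pairs of arrays had a Pearson r of 0.991 to 0.994 over the probe sets, and the medians of the arrays lay between 5.77 and 5.82. Negative control probe sets, 1153 taken as such by their identifiers, had a median of 5.51 and a 95th percentile of 8.26. Of the 10 genes, 5 (Scd, Scd2, Fads3, Elovl3 and Elovl6) averaged below that 95th percentile and 1 of these, Elovl3, below the median. Over all 22093 genes, 19182 averaged below that percentile and 5327 below the median, so the list was not dimmer than most genes. Of 5 hepatocyte markers, Alb, Ttr, Cps1 and Apoa1 read 10.9 or more on every array, while Serpina1 was dimmer, at 7.52 to 7.84 in STZ-O and 7.92 to 8.24 in CB-O.

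Scd and Scd2 stood higher in the offspring of hyperglycaemic fathers, and no other gene of the list separated the groups. Of the 10 genes 6 had a higher mean in STZ-O and 4 a lower one, with a median difference of 0.05, where over all 22093 genes 48.1% were higher, 51.9% lower and the median was -0.0037. In limma, a linear model fitted to all genes, 2 of the 10 had an unadjusted p under 0.05, both higher in STZ-O, and 0 lower, where 3.2% of all genes were called higher and 2.48% lower. Adjusted over all genes none of the 10 passed 0.05 (smallest adjusted p = 0.632), and neither did any other gene (0% of 22093), so none of the differences below is established by this test. The 2 genes whose STZ-O arrays all lay above all CB-O arrays were again Scd and Scd2, and 0 genes lay wholly below, where 5.2% of all genes lay above, 4.93% below and 10.1% in either direction. Bulk liver was measured, so a change in the amount of a cell type and a change in RNA per cell cannot be told apart.

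**Figure D1:**
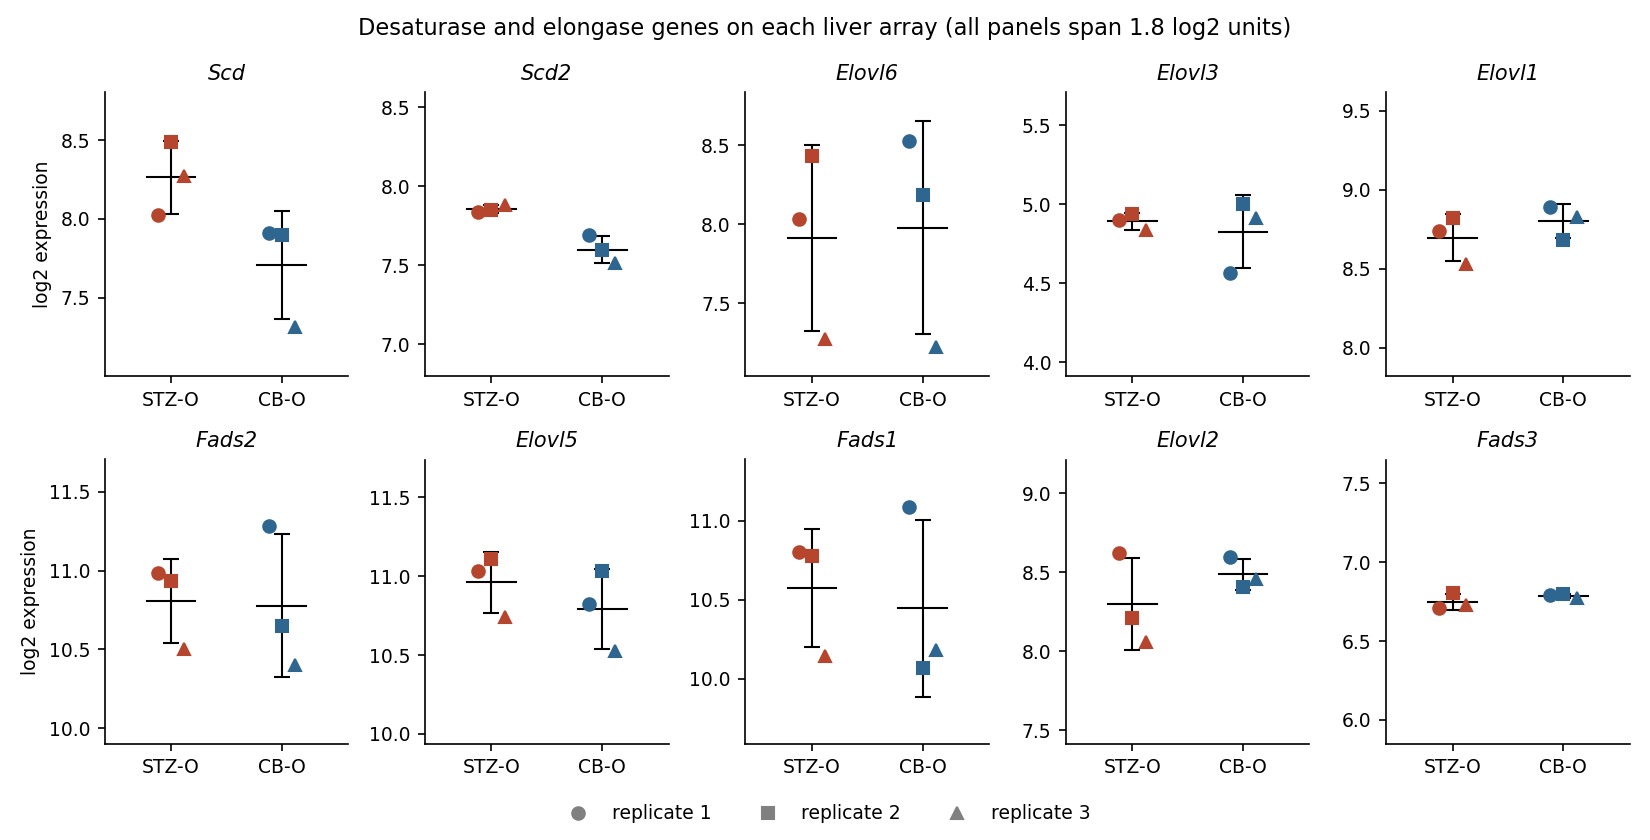
Log2 expression of the 10 genes on each array, 1 panel per gene with all panels spanning 1.8 log2 units; STZ-O is on the left and CB-O on the right, symbols mark replicates, and black lines give the mean with its SD (n = 3 each). Only Scd and Scd2 have all 3 STZ-O arrays above all 3 CB-O arrays, and Elovl6, Fads1 and Fads2 spread widely within both groups.

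Scd encodes the main stearoyl-CoA desaturase of rodent liver. It read 8.03, 8.49 and 8.27 in STZ-O livers, against 7.91, 7.90 and 7.31 in CB-O livers. Every STZ-O array lay above every CB-O array, but STZ-O replicate 1 was close to CB-O replicates 1 and 2, and CB-O replicate 3 stood well below the rest. The means were 8.26 ± 0.23 in STZ-O and 7.71 ± 0.34 in CB-O (SD, n = 3 each), a difference of 0.55 ± 0.18 (SE), or 1.47-fold. Limma gave an unadjusted p of 0.015, an adjusted p of 0.786 and a 95% interval of 0.14 to 0.97. Without CB-O replicate 3 the difference was 0.36 ± 0.13 (SE); with any other array left out it lay between 0.44 and 0.67.

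Scd2 encodes a second stearoyl-CoA desaturase, which in mouse is most abundant in brain and in the young animal. Its values were 7.84, 7.85 and 7.88 in STZ-O livers, against 7.69, 7.60 and 7.52 in CB-O livers. The STZ-O arrays were almost level and the gap to the nearest CB-O array exceeded their whole range. The difference of 0.26 ± 0.06 (SE), or 1.20-fold, had a 95% interval of 0.11 to 0.40, an unadjusted p of 0.00376 and an adjusted p of 0.632 in limma. It stayed between 0.21 and 0.30 with each array left out in turn. On the arrays of both groups Scd and Scd2 were lowest on CB-O replicate 3. Scd4, a further relative outside the list, read 5.71 to 5.82 in STZ-O livers and 5.67 to 5.86 in CB-O livers, close to the negative control median, with a difference of 0.001 ± 0.07 (SE).

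Elovl6, which makes the stearate that the desaturases use, showed no such separation. It read 8.04, 8.44 and 7.28 in STZ-O livers, against 8.53, 8.18 and 7.22 in CB-O livers. The highest and the lowest array both belonged to CB-O, and the lowest array of each group was its replicate 3. Its range of 1.30 over the 6 arrays, a 2.47-fold span, was the widest of the 10 genes, and its SD of 0.57 exceeded that of 99.7% of the 16766 genes that averaged above the negative control median. The difference between groups was -0.06 ± 0.37 (SE), with a 95% interval of -0.93 to 0.81. That interval includes the difference seen for Scd, so these arrays did not exclude a change of that size in Elovl6. Leaving out STZ-O replicate 3 gave 0.26, and leaving out CB-O replicate 3 gave -0.44. The brightest probe set carries an identifier that places it on no chromosome. The other probe sets of Elovl6 ordered the arrays alike at both ends: they read 7.34, 7.94 and 6.78, and 6.79, 7.31 and 6.37, in STZ-O livers, against 8.05, 7.56 and 6.47, and 7.45, 7.05 and 6.31, in CB-O livers.

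The groups overlapped for the remaining elongases of saturated and monounsaturated chains. Elovl1, which makes very long saturated and monounsaturated chains for sphingolipids, read 8.74, 8.82 and 8.53 in STZ-O livers and 8.89, 8.68 and 8.83 in CB-O livers. The difference was -0.10 ± 0.09 (SE), or -0.02 without STZ-O replicate 3. Elovl3, an elongase of long saturated and monounsaturated chains known from mouse brown fat, skin and liver, read 4.84 to 4.94 in STZ-O livers and 4.56 to 5.003 in CB-O livers. All 6 of its values lay below the negative control median, so no level above background was seen in either group and no fold is given.

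The polyunsaturated desaturases were bright and varied more between animals than between groups. Fads2 encodes the delta-6 desaturase that starts the route. It read 10.98, 10.93 and 10.50 in STZ-O livers, against 11.28, 10.65 and 10.40 in CB-O livers. The groups overlapped throughout, with CB-O at both ends, and the means of 10.81 ± 0.26 in STZ-O and 10.78 ± 0.46 in CB-O (SD, n = 3 each) differed by 0.03 ± 0.22 (SE; 95% interval -0.49 to 0.55).

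Fads1 encodes the delta-5 desaturase that forms arachidonate. It read 10.80, 10.78 and 10.14 in STZ-O livers, against 11.09, 10.07 and 10.18 in CB-O livers. The values split into a high set of 3 arrays (CB-O replicate 1 and STZ-O replicates 1 and 2) and a low set of 3, with both groups in each set, and the same 3 arrays were the highest for Fads2. The difference was 0.13 ± 0.28 (SE; 95% interval -0.53 to 0.78). It moved to 0.45 without CB-O replicate 1 and to -0.06 without CB-O replicate 2. The SD over the 6 arrays exceeded that of 99.3% of genes above the negative control median for Fads1 and of 98.6% for Fads2, against 6.94% for Fads3.

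Fads3, which lies beside Fads1 and Fads2 on the chromosome and acts on sphingoid bases rather than in the main polyunsaturated route, hardly varied. It read 6.71, 6.80 and 6.73 in STZ-O livers and 6.79, 6.80 and 6.77 in CB-O livers. Its difference was -0.04 ± 0.06 (SE), and its values lay between the negative control median and 95th percentile.

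The polyunsaturated elongases pointed in opposite directions by their means, within wide errors. Elovl5, which lengthens the products of Fads2, read 11.03, 11.11 and 10.74 in STZ-O livers, against 10.82, 11.03 and 10.52 in CB-O livers. The groups overlapped, replicate 3 was the lowest of each, and the difference was 0.17 ± 0.14 (SE; 95% interval -0.16 to 0.50), or 0.04 without CB-O replicate 3. Elovl2, which lengthens the chains that lead to docosahexaenoate, read 8.62, 8.21 and 8.06 in STZ-O livers, against 8.60, 8.41 and 8.46 in CB-O livers. STZ-O replicate 1 was the highest of all 6 and the other STZ-O arrays were the lowest. The difference was -0.19 ± 0.14 (SE; unadjusted p = 0.203 in limma). Without STZ-O replicate 1 it was -0.35 ± 0.09 (SE; limma adjusted p = 0.751), and without STZ-O replicate 3 it was -0.07 ± 0.13 (SE; limma adjusted p = 0.999). With STZ-O replicate 1 left out, 3 of the 10 genes had an unadjusted p under 0.05, as did 1171 of all 22093. With STZ-O replicate 2 left out, Scd2 was the 1 gene of the 10 that did, beside 1282 of all 22093, and Scd was at an unadjusted p of 0.053.

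**Figure D2:**
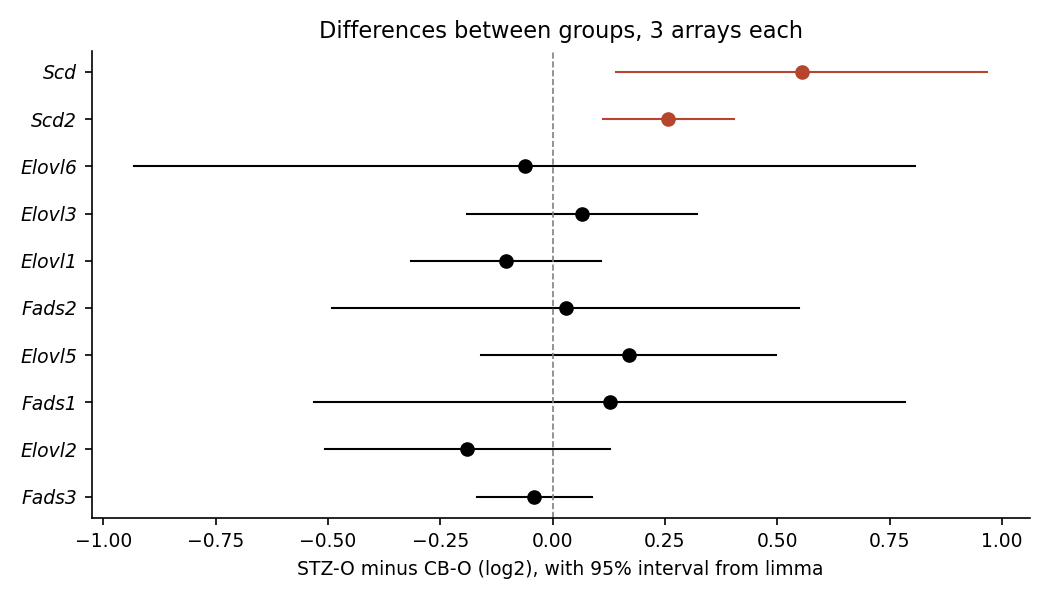
Log2 difference (STZ-O minus CB-O) of each gene, with its 95% interval from limma (3 arrays per group); red marks genes whose groups do not overlap. The intervals of Scd and Scd2 lie above 0, that of Elovl6 runs from -0.93 to 0.81, and that of Fads3 is the narrowest.

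The branches were then compared array by array, by the deviation of each gene from its own mean over the 6 arrays. The monounsaturated branch (Scd, Scd2 and Elovl6) averaged 0.08, 0.37 and -0.08 in STZ-O livers, against 0.16, 0.01 and -0.54 in CB-O livers. The polyunsaturated branch (Fads1, Fads2, Elovl2 and Elovl5) averaged 0.22, 0.11 and -0.28 in STZ-O livers, against 0.31, -0.10 and -0.25 in CB-O livers. Both branches overlapped between the groups. Their difference, monounsaturated minus polyunsaturated, was -0.14, 0.26 and 0.20 in STZ-O livers and -0.15, 0.11 and -0.29 in CB-O livers, a mean of 0.11 ± 0.21 against -0.11 ± 0.20 (SD, n = 3 each). The shift of 0.22 between these means was about as large as the spread within a group, and no test was made of it because the genes were chosen with results of these data known. With Elovl1 and Elovl3 added to the first branch and Fads3 to the second the shift was 0.12.

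Within the monounsaturated branch the desaturases and the elongase had different array patterns. Scd and Scd2 together averaged 0.08, 0.31 and 0.22 above their mean in STZ-O livers, against -0.06, -0.11 and -0.44 in CB-O livers. Elovl6 on the same arrays deviated by 0.09, 0.49 and -0.67 in STZ-O and by 0.58, 0.24 and -0.72 in CB-O. STZ-O replicate 3 is the clearest case: there Scd was 0.29 above its mean while Elovl6 was 0.67 below, that is at -0.67, and Fads1 and Fads2 were at -0.37 and -0.29. On CB-O replicate 1 the order was turned round, with Elovl6, Fads1 and Fads2 at 0.58, 0.58 and 0.49 and Scd at -0.07. On CB-O replicate 3 all of them were low, Scd at -0.67, Elovl6 at -0.72, Fads1 at -0.33 and Fads2 at -0.39.

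**Figure D3:**
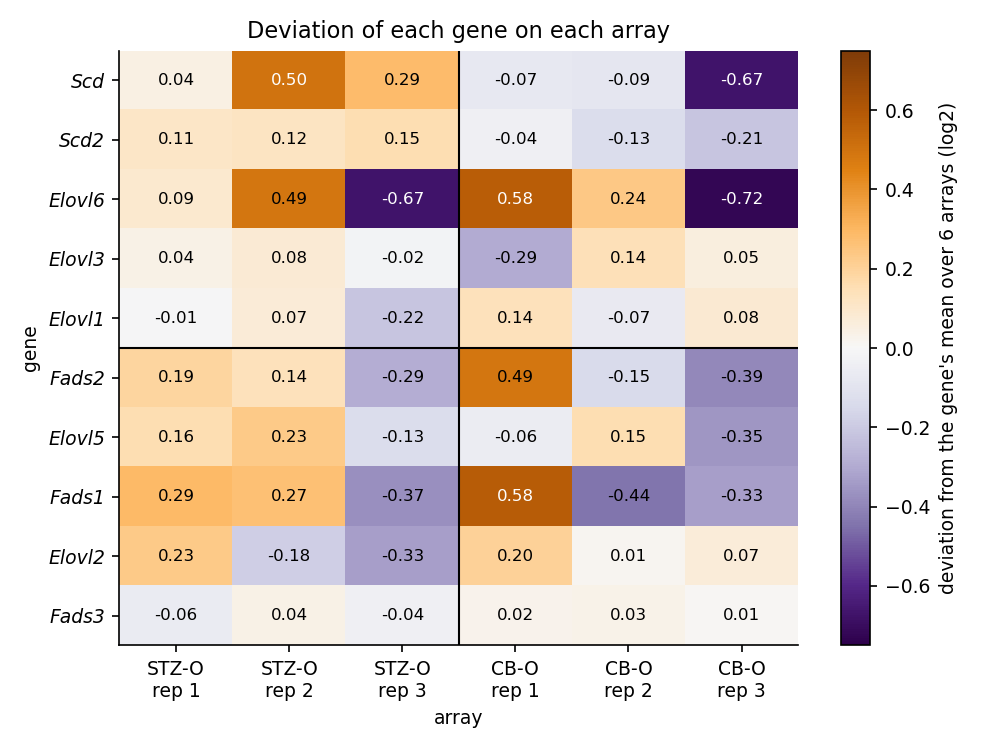
Deviation of each gene (rows) on each array (columns, STZ-O left of the vertical line) from its mean over the 6 arrays, on the log2 scale; genes above the horizontal line handle saturated and monounsaturated chains. Scd and Scd2 are positive on all STZ-O arrays and negative on all CB-O arrays, whereas Elovl6, Fads1 and Fads2 are positive on CB-O replicate 1 and negative on both replicates numbered 3.

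**Figure D4:**
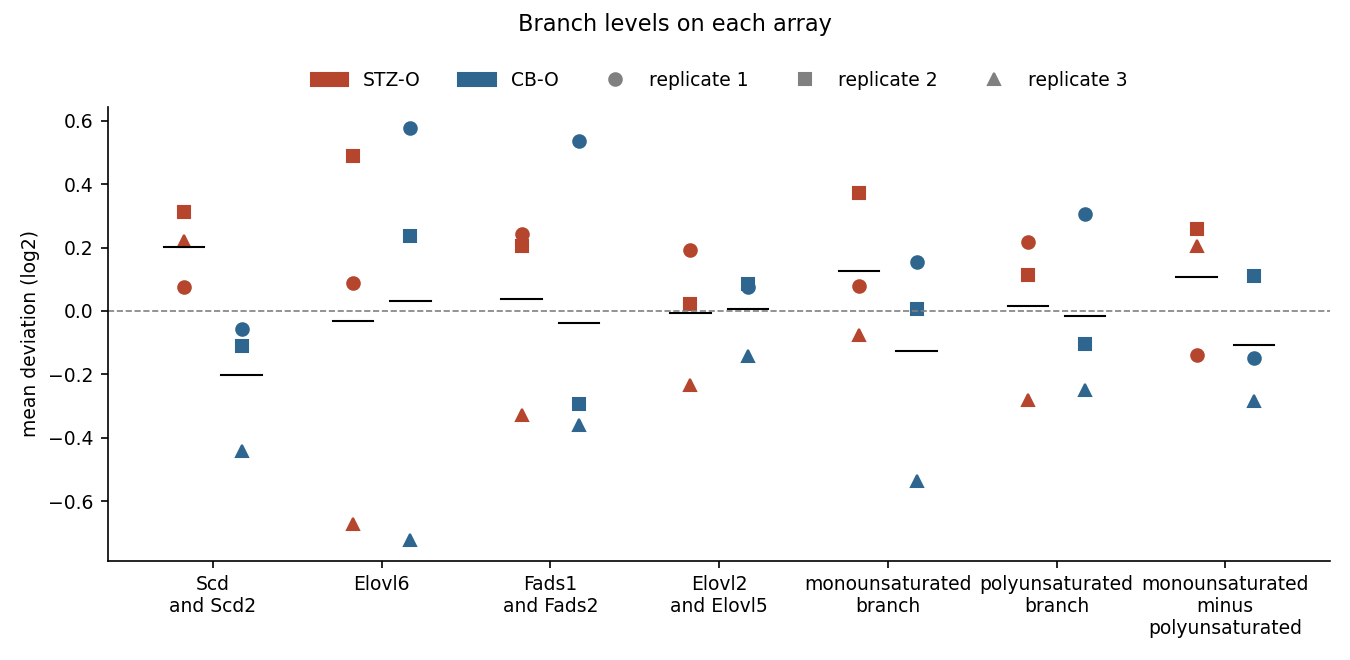
Mean deviation on each array for pairs of genes and for the branches, on the log2 scale; colour gives the group, symbols the replicate and black lines the group mean (n = 3 each). The groups part for Scd and Scd2 and overlap for every other level drawn.

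The genes whose array patterns were nearest to those of Fads2 and Scd were then looked up. For Fads2, among 16757 other genes above the negative control median, the smallest root mean square difference in deviation over the 6 arrays was that of Acss2, at 0.06. Acss2 encodes the cytosolic enzyme that makes acetyl-CoA from acetate, and it read 8.48, 8.34 and 7.89 in STZ-O livers and 8.64, 8.08 and 7.92 in CB-O livers. Next came Sri, the gene of the calcium-binding protein sorcin, at 0.09, and Sc5d, which encodes a desaturase of cholesterol synthesis, at 0.10; Fads1 itself was at 0.15. The genes closest to Scd were Gckr, Cep152 and Sms-ps2, at 0.14, 0.14 and 0.16. Gckr encodes the regulatory protein of glucokinase, and it read 9.003, 9.43 and 9.18 in STZ-O livers and 8.61, 8.69 and 8.46 in CB-O livers. Scd2 lay further from Scd, at 0.25. This measure counts the size of the deviations as well as their pattern, and the SD over the 6 arrays was 0.40 for Scd and 0.15 for Scd2. The comparisons with Fads2 and Scd describe 6 arrays, with each nearest gene picked from the 16757.

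Since Scd and Scd2 ordered the groups alike, and Fads1 and Fads2 had the same 3 highest arrays, their promoter windows are shown, 250 bases before to 50 after the RefSeq start in build GRCr8. RefSeq windows matched 9 of the 10 genes by gene identifier. Capitals mark NF-Y boxes (CCAAT) and GC boxes (GGGCGG), read on both strands, which do not overlap here; TATAAA was searched too and is in none of the 10 windows of these genes and in 14.2% of all.
Scd (chr1:253231682-253231981, minus strand): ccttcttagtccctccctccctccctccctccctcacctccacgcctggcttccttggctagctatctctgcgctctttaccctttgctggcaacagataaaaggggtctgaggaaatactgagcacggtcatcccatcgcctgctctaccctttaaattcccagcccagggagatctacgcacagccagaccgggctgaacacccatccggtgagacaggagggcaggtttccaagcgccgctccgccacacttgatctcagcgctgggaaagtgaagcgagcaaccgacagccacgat
Scd2 (chr1:253118127-253118426, plus strand): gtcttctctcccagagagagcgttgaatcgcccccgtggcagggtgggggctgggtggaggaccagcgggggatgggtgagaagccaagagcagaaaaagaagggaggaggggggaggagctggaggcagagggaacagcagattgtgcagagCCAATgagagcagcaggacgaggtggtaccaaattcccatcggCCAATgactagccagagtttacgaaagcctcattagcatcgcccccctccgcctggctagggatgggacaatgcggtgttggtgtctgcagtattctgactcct
Fads1 (chr1:216252442-216252741, plus strand): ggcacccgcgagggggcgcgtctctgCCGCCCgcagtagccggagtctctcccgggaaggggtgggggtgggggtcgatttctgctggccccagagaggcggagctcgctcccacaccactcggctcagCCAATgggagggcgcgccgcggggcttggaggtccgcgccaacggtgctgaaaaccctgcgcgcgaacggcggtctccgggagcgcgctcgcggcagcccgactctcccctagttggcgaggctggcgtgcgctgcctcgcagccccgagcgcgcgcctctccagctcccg
Fads2 (chr1:216171984-216172283, minus strand): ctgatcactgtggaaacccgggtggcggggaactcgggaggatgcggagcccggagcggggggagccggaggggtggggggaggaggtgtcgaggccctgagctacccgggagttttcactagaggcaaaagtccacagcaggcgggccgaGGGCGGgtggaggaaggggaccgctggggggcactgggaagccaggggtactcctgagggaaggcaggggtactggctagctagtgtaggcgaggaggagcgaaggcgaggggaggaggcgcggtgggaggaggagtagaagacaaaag

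The Scd2 window held 2 NF-Y boxes, whose first bases are at -97 and -54 from the start, and the Scd window none. The Fads1 window held 1 NF-Y box, at -121, and 1 GC box, while the Fads2 window held 1 GC box. An NF-Y box was present in 37.5% and a GC box in 33.1% of 33469 windows of 300 bases, so such matches are common. A sterol element for SREBP, searched as TCACNCCAC on both strands, was in 0 of the 10 windows of these genes (Elovl2 has 2) and in 1.12% of all windows. Elements of another form, or outside the 300 bases, would not be found by this search. The E-box CACGTG was found in the windows of Elovl3 and Elovl5 and in 6.42% of all. The Fads1 window was 74.3% G and C and that of Fads2 67.3%, against 58.3% for Scd, 59% for Scd2 and a median of 51.7% over all windows. These matches describe the letters of the windows alone.

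The partner genes of the pathway, in 8 lists, were read from the same fit. Of 54 measured partners 32 had a higher mean in STZ-O and 22 a lower one (median difference 0.02); 6 were higher and 1 lower at an unadjusted p under 0.05, where 5.68% of all genes were called in either direction, and none passed the adjusted threshold (smallest adjusted p = 0.57 in limma). The 7 became 2 when STZ-O replicate 2 was left out and 3 when CB-O replicate 3 was.

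All 6 genes that supply saturated substrate had a higher mean in STZ-O, with a median of 0.19. Acaca and Acacb, the acetyl-CoA carboxylase genes, differed by 0.27 ± 0.10 and 0.31 ± 0.12 (SE), and Slc25a1, which exports citrate from mitochondria for fatty acid synthesis, by 0.15 ± 0.06 (SE). Slc25a1 read 8.83, 8.77 and 8.81 in STZ-O livers, against 8.72, 8.64 and 8.59 in CB-O livers, so its groups parted as those of Scd did. Limma's adjusted p was 0.838 for both Acaca and Slc25a1 and 0.84 for Acacb. Without CB-O replicate 3 the list had 4 genes higher and 2 lower, with a median of 0.10. Acacb was at 0.19 without CB-O replicate 2, and Acaca at 0.15 without STZ-O replicate 2. Fasn, the fatty acid synthase gene, was lowest on replicate 3 of each group, as Elovl6 was, with 8.96, 9.18 and 8.58 in STZ-O livers and 9.01, 8.85 and 8.32 in CB-O livers; it was chosen after its values were seen.

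The 11 regulators split into 5 with a higher and 6 with a lower mean (median -0.01). Ppara, the fatty acid receptor that in rodent liver also raises desaturase genes, read 10.08, 10.13 and 9.87 in STZ-O livers, against 9.77, 9.49 and 9.39 in CB-O livers. Its groups did not overlap, and the difference was 0.47 ± 0.11 (SE; limma adjusted p = 0.57). Insig1, which holds SREBP in the endoplasmic reticulum and is itself an SREBP target, was chosen after its values were seen. It read 10.17, 10.08 and 9.34 in STZ-O livers, against 9.84, 9.40 and 9.25 in CB-O livers, so its 3 highest arrays were those of Fads1 and Fads2. Srebf1 itself differed by 0.01 ± 0.11 (SE).

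In the family genes outside the 10, 5 of 6 were lower in STZ-O, and Degs1, the dihydroceramide desaturase gene, read 8.37, 8.30 and 8.25 in STZ-O livers, against 8.48, 8.58 and 8.40 in CB-O livers with no overlap (difference -0.18 ± 0.07 SE, limma adjusted p = 0.837). Of the electron supply genes, which feed desaturases through cytochrome b5, 2 of 6 were higher and 4 lower, and Cyb5r1, a cytochrome b5 reductase gene below the 95th percentile of negative controls, had the smallest p at a difference of -0.12 ± 0.07 (SE), or -0.07 without STZ-O replicate 3. Of the rest of the elongation cycle 4 of 6 were higher; Tecrl, a relative of the enoyl reductase gene Tecr, was the 1 with an unadjusted p under 0.05, but at 2.95 in STZ-O and 2.77 in CB-O it lay below the negative control median and no fold is given. Acyl-CoA activation had 5 of 7 higher, with Acsl5, an acyl-CoA synthetase gene, at 0.13 ± 0.09 (SE), or 0.04 without CB-O replicate 3. The peroxisomal genes that complete docosahexaenoate had 4 of 6 higher, with the thiolase gene Acaa1b at 0.24 ± 0.09 (SE; limma adjusted p = 0.84); its near-identical relative Acaa1a may share its signal. Acyl transfer into phospholipid had 5 of 6 higher, with Lpcat2, a lysophosphatidylcholine acyltransferase gene, at 0.09 ± 0.09 (SE), or 0.02 without STZ-O replicate 2.

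**Figure D5:**
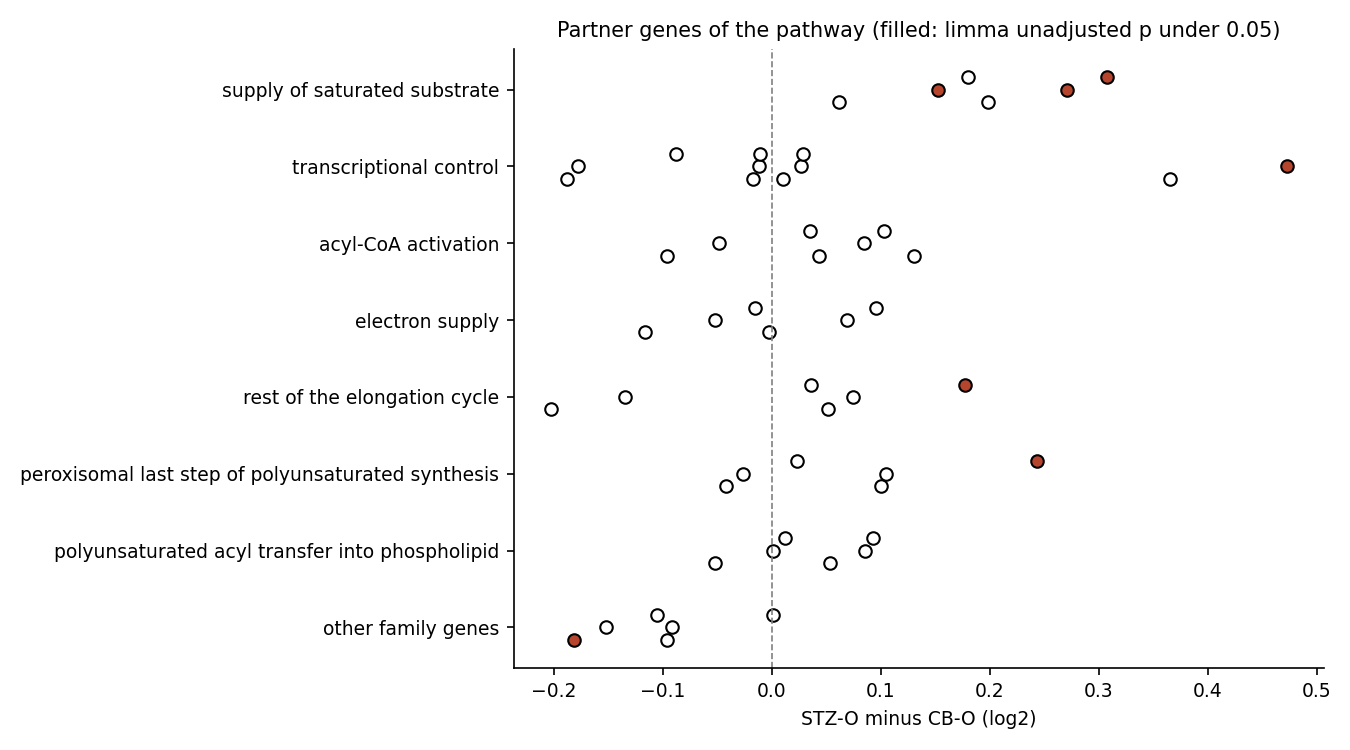
Log2 difference (STZ-O minus CB-O) of each partner gene, by list (1 point per gene, 54 genes; vertical offsets separate points only). All 6 genes of substrate supply lie above 0, and filled points mark the 7 genes with a limma unadjusted p under 0.05.

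Markers of other cell types were read on the same arrays. Of 6 adipocyte markers 5 had a lower mean in STZ-O, while Lep, also dim, was higher by 0.26 ± 0.10 (SE), so that their median difference was -0.02 and their mean difference 0.02. Their mean deviation was -0.01 to 0.02 in STZ-O livers and -0.10 to 0.05 in CB-O livers, and the adipocyte-defining gene Adipoq was below the negative control median on every array, at 4.60 to 4.71 in STZ-O and 4.62 to 4.72 in CB-O. Sinusoidal endothelial markers averaged 0.09, 0.04 and -0.36 in STZ-O livers, against 0.22, 0.02 and -0.01 in CB-O livers, and Kupffer cell markers 0.19, 0.20 and -0.33 in STZ-O, against -0.01, 0.03 and -0.08 in CB-O. Both lists were thus lowest on STZ-O replicate 3, the array on which Fads1, Fads2, Elovl2 and Elovl6 were low and Scd was not. On CB-O replicate 3 Fads1, Fads2 and Elovl6 were low too, at -0.33, -0.39 and -0.72, and Elovl2 was at 0.07. There the endothelial markers were at -0.01 and the Kupffer cell markers at -0.08. Hepatocyte markers averaged -0.01, -0.08 and -0.07 in STZ-O, against 0.10, 0.03 and 0.03 in CB-O. Their members did not move together: Alb and Ttr were higher in STZ-O, by 0.04 and 0.08. Cps1 and Apoa1 were lower, at -0.07 and -0.21, and the dim Serpina1 had the largest difference, at -0.38. The part of these markers in the results was not tested. Stellate cell, cholangiocyte, lymphocyte and red cell markers differed between group means by -0.01, -0.003, -0.04 and -0.17, with all 4 red cell markers lower in STZ-O.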

How the data were processed

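Liver RNA of 6 rats was read on 6 one-colour Affymetrix rat transcriptome arrays. The authors deposited log2 values, 1 per probe set and array, made with Affymetrix Expression Console 1.4.1 and RMA (background correction, normalization between arrays and 1 summary per probe set) per the submitters' processing notes; RMA compresses differences of dim probe sets. For RMA settings and annotation version: not given in the sources used here. The number of arrays limits the precision.

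Of 70580 probe sets, 1738 controls were left out. The platform annotation gave 1 symbol to 23446 of the remaining 68842, several to 505 and none to 44891 here. Entrez identifiers of 22077 matched RefSeq, whose symbols were used. Where several probe sets shared a symbol, the brightest on average stood for the gene, which left 22093 genes. Differences are STZ-O minus CB-O, tested two-sided with limma 3.58.1 (lmFit, eBayes) in R 4.3.3 without covariates, with Benjamini-Hochberg adjustment over all genes, threshold 0.05. The fit was tested on simulated data. P-values measure the spread between single animals. An exact permutation test of 3 arrays against 3 cannot go below p = 0.1 and was not used.

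The 10 genes, the partner lists and the markers were chosen with earlier results of these data known. From each partner list the text names the genes with an unadjusted p under 0.05, or the 1 with the smallest p, and the 3 genes most like Scd and Fads2. Fasn, Insig1, Srebf1 and Scd4, and the genes named from the marker, sex and feeding lists, were chosen after their values were seen. Titles number the replicates 1 to 3 in both groups; nothing says that equal numbers share a litter or day. The alternatives were each array left out, the replicate number as a block, limits on dim genes, an intensity trend with robust variances, array weights, other treatments of probe sets, quantile normalization, the Y-linked level as a covariate, no moderation, and wider branches.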

Additional observations from a re-analysis of the deposited data

How the results depend on the processing

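Of 22093 genes 0 passed the adjusted threshold in limma (1255 at an unadjusted p under 0.05); the count was 0 to 1 with each array left out in turn (1 without STZ-O replicate 2), 2 with genes above the negative control median and 2 when eBayes used an intensity trend with robust variances, and none of these was one of the 10 genes, whose smallest adjusted p in any setting was 0.469 (Scd2). The limit at the 95th percentile of negative controls left Scd and Scd2 out. In the other settings Scd was between 0.36 and 0.67 and Scd2 between 0.21 and 0.30. As the groups did not overlap for either gene, leaving out or weighting arrays could change the size of a difference but not its sign. The block, the trend, no moderation, the limit at the negative control median and the other treatments of probe sets left both estimates unchanged. Both differences stayed positive under quantile normalization (Scd 0.55, Scd2 0.25) and with the Y-linked covariate (Scd 0.55, Scd2 0.26). The deposited values were already normalized between arrays, and the Y-linked level differed by only 0.02 between group means. Neither setting was therefore a strong check of the sign. Elovl6 was at 0.090 with array weights. With 1 array left out, Fads1 ranged from -0.062 to 0.45, Fads2 from -0.16 to 0.28, Elovl6 from -0.44 to 0.26 and Elovl3 from -0.066 to 0.15, so each changed sign; Fads3, Elovl1, Elovl2 and Elovl5 did not. The number of the 10 genes higher in STZ-O ranged from 4 to 7, that of partner genes from 27 to 37, and the branch shift from 0.13 to 0.34. With the replicate block 0 genes passed (1310 at an unadjusted p under 0.05), 3 of the 10 genes had an unadjusted p under 0.05, and Scd and Scd2 were at adjusted p = 0.666 and 0.671. Deviations of equally numbered arrays correlated at 0.146, -0.175 and 0.10, so the numbers are not shown to pair the animals. In all, 5 of the 10 genes lay below the 95th percentile of negative controls, which limits what their differences can show. Of all 22093 genes 19182 lay below it.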

Other observations

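Further lists outside the pathway, on matters that are known to move hepatic lipid genes, were read beside the desaturases and elongases. Of 9 clock genes 6 were higher in STZ-O and 3 lower, and 3 had an unadjusted p under 0.05 in limma, where 5.68% of all genes did. The 3 became 0 without STZ-O replicate 2 and 1 without STZ-O replicate 3 or CB-O replicate 1. Leaving out CB-O replicate 3 turned the split to 3 higher and 6 lower. Nr1d2, a repressor of the clock, read 9.63, 9.63 and 9.65 in STZ-O livers and 9.45, 9.53 and 9.48 in CB-O livers. Its difference was 0.15 ± 0.05 (SE; limma adjusted p = 0.809). Bmal1, the activator of the clock, was at 0.31 ± 0.11 (SE; 0.21 without STZ-O replicate 3), and Cry1, a repressor, at -0.24 ± 0.09 (SE; -0.15 without CB-O replicate 2). Both were below the 95th percentile of negative controls, and neither passed the adjustment. The time of day at death is not given in the labels.

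Sex was not recorded. The Y-linked genes Ddx3y and Eif2s3y were above the 95th percentile of negative controls on all 6 arrays, Ddx3y at 9.36 to 9.44 in STZ-O and 9.22 to 9.67 in CB-O. The other Y-linked genes averaged below it: Uty read 8.20 to 8.29 in STZ-O and 8.16 to 8.24 in CB-O, and Kdm5d 7.59 to 7.70 in STZ-O and 7.60 to 7.75 in CB-O. The male-biased Cyp2c11 was at 11.83 to 12.14 in STZ-O and 11.87 to 12.002 in CB-O, and the female-biased Cyp2c12 was also above that percentile on every array, at 9.12 to 10.52 in STZ-O and 9.04 to 9.65 in CB-O. Related Cyp2c genes may share hybridisation. Uty differed by 0.05 ± 0.06 (SE), or 0.03 without STZ-O replicate 2. After adjustment for the Y-linked level Scd was at 0.55 and Scd2 at 0.26. That level ran only from -0.11 to 0.12 over the 6 arrays, with no array lacking the signal. The adjustment therefore cannot show what a difference in sex would do. Cyp4a2, a male-biased fatty acid hydroxylase gene, differed by 0.29 ± 0.12 (SE; 0.19 without STZ-O replicate 1). The female-biased Cyp2c7, of another Cyp family, differed by 0.21 ± 0.07 (SE).

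Of 4 measured genes that follow feeding 3 had a higher mean in STZ-O and 1 a lower one, and 0 had an unadjusted p under 0.05 in limma (1 when CB-O replicate 1 or CB-O replicate 2 was left out). The SD of Pck1 was 0.11 in STZ-O and 0.45 in CB-O, that of Irs2 0.11 in STZ-O and 0.46 in CB-O, and that of Igfbp1 0.46 in STZ-O and 0.65 in CB-O (n = 3 each). G6pc1, the glucose-6-phosphatase gene that insulin lowers, read 9.15, 10.47 and 9.85 in STZ-O livers and 10.72, 9.22 and 8.45 in CB-O livers. Its difference was 0.36 ± 0.55 (SE), and with 1 array left out it ranged from -0.15 (without CB-O replicate 3) to 0.99 (without CB-O replicate 1). CB-O replicate 3, lowest for G6pc1, was also lowest for Scd, Scd2, Fads2, Elovl5 and Elovl6. The other feeding genes did not share this: on that array Irs2 was at its highest, at 7.64, and Pck1 and Igfbp1 were neither highest nor lowest. The mean deviation of the feeding list was lowest on CB-O replicate 2, at -0.55, against -0.19 on CB-O replicate 3. A link to feeding was not tested.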
